A study of Mus musculus with 13 samples.

Results

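The difference between tumor and normal mammary organoids was described as the mean of its value in Matrigel and its value in collagen I, both gels weighted equally. It was measured on 12 of 14 arrays, those of hybridisation batch 2. Organoids are epithelial fragments freed from tissue by mechanical and enzymatic digestion and separated from single cells by centrifugation. Tumor organoids came from the largest mammary tumor of MMTV-PyMT mice aged 12 to 16 weeks, which carry the polyoma virus middle T antigen under the mouse mammary tumor virus promoter. Normal organoids came from glands of wild-type FVB mice. The labels give no background strain for the MMTV-PyMT mice and no age for the normal mice. Every culture received the growth factor FGF2 (2.5 nM) for 4 days. The gel was either Matrigel, whose main component is laminin, or collagen I (3 mg/ml, from rat tail), the fibrillar collagen of connective tissue. The 4 groups, of 3 arrays each, were tumor in Matrigel, tumor in collagen I, normal in Matrigel and normal in collagen I. They came from 3 tumor mice, each used in both gels, and 4 normal mice, of which A and B were used in both gels, C only in collagen I and D only in Matrigel.

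A normal mammary duct has an inner layer of luminal cells, some of which sense estrogen and progesterone through nuclear receptors, and an outer basal layer of contractile myoepithelial cells on a basement membrane. Middle T antigen recruits Src family kinases and PI3 kinase in the cells that make it, and tumors of this model lose hormone receptors as they progress. A tumor difference with the same sign and a similar size in both gels is described here as the component that both matrices share.

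Levels are log2 processed signals minus the 75th percentile of their array. Differences are tumor minus normal on that log2 scale, ± is the standard error of the limma fit, and adjusted p-values are limma's, by Benjamini-Hochberg over 17643 genes. A gene was called when its adjusted p was under 0.05. Where 1 tissue had no array well above background in 1 or both gels, and the other had some in each gel, the fold is a lower bound. It is a bound for this processing and not for the alternatives. Brightness differed, with a 75th percentile of signal of 383 to 570 on tumor Matrigel arrays and 691 to 812 on tumor collagen I arrays, against 671 to 1098 on normal Matrigel arrays and 971 to 1216 on normal collagen I arrays. Spike-in control probes stood at -0.323 to 0.361 on tumor Matrigel arrays and at -1.943 to -1.47 on tumor collagen I arrays, against -2.154 to -1.524 on normal Matrigel arrays and -2.279 to -2.006 on normal collagen I arrays. The tumor Matrigel group thus stood apart from the other 3 groups in both measures.

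Averaged over the gels, 4561 genes were higher in tumor organoids (25.9% of those tested) and 4305 were lower (24.4%). These 2 shares are the background for every count of called list members below. Counts near them are given as a description only. The difference was called for 51.5% of genes in Matrigel and for 8.89% in collagen I, with an SD across genes of 1.35 in Matrigel and 0.928 in collagen I. Genes were termed concordant when they were called in the average and in each gel, had one sign in both, and had a smaller difference at least 0.5 times the larger. There were 1209 of them, 516 higher in tumor (2.92%) and 693 lower (3.93%). These shares are the background for every count of concordant list members below. The median ratio of smaller to larger difference was 0.786, and 775 of the 1209 had the larger one in Matrigel. Among genes whose name is a capital letter followed by lower-case letters or digits, Igfbp3 and Tmtc2 were nearest to the ratio limit. Igfbp3 was just inside at -4.81 in Matrigel and -2.41 in collagen I, and Tmtc2 just outside at -2.23 and -1.11. Called in both gels with the same sign were 1346 genes, and 12 were called with opposite signs. Leaving out the collagen I array of tumor mouse B gave 764 concordant genes, that of normal mouse B 686 and that of normal mouse C 640. Leaving out both arrays of tumor mouse B gave 752 and both of normal mouse B 572.

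The split of calls between directions depended on the scaling. With each array's median in place of the 75th percentile 7537 genes were higher and 2766 lower in tumor organoids, and the median of all genes was 0.38 in place of 0.08. With normexp background correction and an offset 6722 were higher and 2118 lower, with a median of 0.29. Of the 1209 concordant genes all kept their sign with the median scaling, and 1013 kept it with the background correction. These genes were chosen on the same arrays, so the counts are a description only. The medians of the endothelial, fibroblast, interstitial matrix, hormone-sensing, basal, mesenchymal, mitosis and replication lists given below stayed under 0 with all 5 other scalings or backgrounds tried, and those of the hypoxia, interferon, MHC class I, inflammation, keratinization, stress, protease and luminal lists stayed above 0.

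Large concordant differences were mostly decreases. Past 2 log2 units there were 497 decreases and 177 increases, counted on fitted differences and not on bounds. Among all concordant genes, 139 decreases had no tumor array well above background and 28 increases had no normal array so. The fitted sizes of these genes rest on signal at background. The 6 tumor arrays all lay above the 6 normal arrays for 9.11% of all genes tested and all below them for 6.86%. These shares are the background for every statement here that the arrays of the tissues did not overlap, and 1059 of the 1209 concordant genes were among those genes. Across genes the differences in the 2 gels had a Pearson r of 0.75 and a Spearman rho of 0.724, as a description only, since genes are not independent replicates and 5 of the 7 mice contributed to both gels. In the scatter of the differences in the 2 gels the definition of concordance sets how near these genes lie to the line of equal size.

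**Figure D1:**
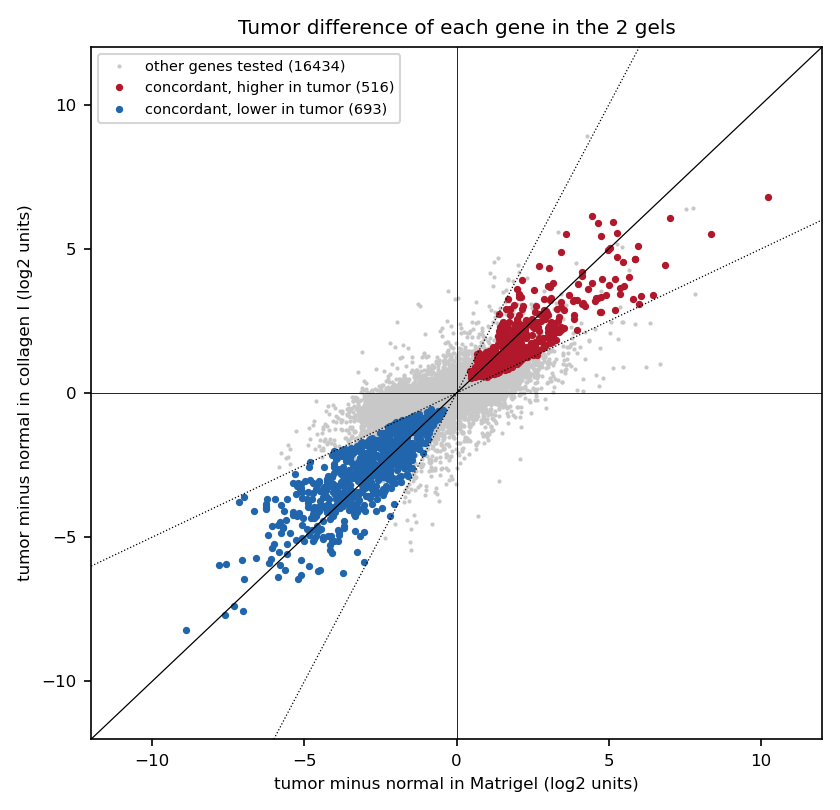
Each point is 1 of 17643 genes, with its tumor minus normal difference in Matrigel on the x axis and in collagen I on the y axis, both in log2 units. The solid line marks equal differences and the dotted lines a ratio of 0.5 between them. The 516 red genes (concordant, higher in tumor) and 693 blue genes (concordant, lower in tumor) lie between the dotted lines, and grey points are the other genes tested.

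Among the concordant genes with the largest increases were 3 kallikreins (Klk6, Klk7 and Klk14). Klk6, a secreted serine protease of the tissue kallikrein family, had a lowest, median and highest level of 1.05, 2.40 and 3.90 on the 6 tumor arrays, against -6.13, -3.94 and -3.06 on the 6 normal arrays. The tissues were separated by a wide gap, with a difference of 6.53 ± 0.48 (92.6-fold higher, limma adjusted p = 4.65e-06), which was 7.01 in Matrigel and 6.05 in collagen I. Crct1, a gene of the epidermal differentiation complex, had levels of -0.40, 2.44 and 6.21 in tumor organoids, against -8.30, -4.92 and -4.14 in normal organoids. Its tumor arrays were widely spread (8.51 ± 1.09, or 6.94 without tumor mouse C), and 4 of 6 normal arrays were well above background. Klk7 and Klk14, kallikreins known for shedding of the outer skin, rose by 5.41 ± 1.03 and 5.04 ± 0.62. Klk7 had levels of -0.42, -0.34 and 4.02 in tumor mice A, B and C in Matrigel and of -0.37, -0.91 and 4.55 in collagen I, against -5.05, -4.68 and -2.85 as the lowest, median and highest of normal arrays. Tumor mouse C stood far above the other 2 in both gels, and the difference was 3.81 without it (limma adjusted p = 0.000286). With slide as a fixed block Klk7 was not called (limma adjusted p = 0.0562). Klk14 differed by 5.04 in Matrigel and 5.04 in collagen I, and by 4.38 on average without tumor mouse C.

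Msln, the cell surface protein mesothelin, had levels of -0.96, 1.32 and 2.45 in tumor organoids, against -5.30, -4.79 and -3.62 in normal organoids. No tumor array reached down to a normal one (5.65 ± 0.45, 50.4-fold higher, limma adjusted p = 8.96e-06). Pglyrp1, a peptidoglycan-binding antibacterial protein, had levels of 2.04, 3.57 and 6.10 in tumor organoids, against -1.65, -1.01 and 0.47 in normal organoids (4.57 ± 0.42). Ltf, the iron-binding milk and secretion protein lactoferrin, had levels of 1.25, 4.71 and 5.77 in tumor organoids, against -0.89, -0.20 and 1.18 in normal organoids (4.37 ± 0.54, 20.7-fold higher). The lowest tumor array, in collagen I, stood only just above the highest normal array. Tnfrsf9, a costimulatory receptor of the TNF receptor family, rose by 4.92 ± 0.60, and Bst1, a cell surface ectoenzyme that makes cyclic ADP-ribose, by 4.51 ± 0.64.

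Other genes had no normal array well above background. Degs2, a sphingolipid hydroxylase and desaturase, had levels of -4.62, 0.82 and 1.60 in tumor organoids, against -8.53, -7.75 and -7.00 in normal organoids, and was at least 43.2-fold higher. Slc6a4, the serotonin transporter, had levels of -3.57, -2.21 and -0.45 in tumor organoids, against -8.10, -7.40 and -6.65 in normal organoids, and was at least 16.9-fold higher. All 6 tumor arrays were well above background for both genes. Across the alternatives the smallest difference on the log2 scale was 3.02 for Degs2 and 1.80 for Slc6a4. Lce1d, a late cornified envelope gene, was at least 46.3-fold higher on average but not called in collagen I alone (limma adjusted p = 0.129). Its fitted difference was 7.09 with and 4.72 without tumor mouse C. All of these genes were kept for testing through their tumor arrays alone, so their calls rest on normal values at background.

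The plot of 16 genes by array shows how far the arrays of the tissues lay apart. Among the genes that fell most was Dmbt1, which encodes a secreted scavenger receptor of epithelia, with levels of -5.72, -4.61 and -3.71 in tumor organoids, against 2.02, 2.92 and 3.72 in normal organoids. The difference of -7.64 ± 0.40 (200-fold lower, limma adjusted p = 7.06e-07) was nearly equal in Matrigel (-7.60) and in collagen I (-7.68). Ptn, the heparin-binding growth factor pleiotrophin, had levels of -5.36, -3.92 and -2.52 in tumor organoids, against 1.63, 3.60 and 4.41 in normal organoids (-7.28 ± 0.52). Tspan8, a membrane tetraspanin, had levels of -2.21, -0.67 and 2.12 in tumor organoids, against 4.85, 5.13 and 5.48 in normal organoids (-5.57 ± 0.54). The 2 tissues did not overlap for any of these 3 genes. Aoc1, a diamine oxidase, fell by 7.34 ± 0.59 on the log2 scale with 2 of 6 tumor arrays well above background, and the calmodulin-binding protein gene Pcp4 fell by 6.71 ± 0.28 with 4 of 6.

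**Figure D2:**
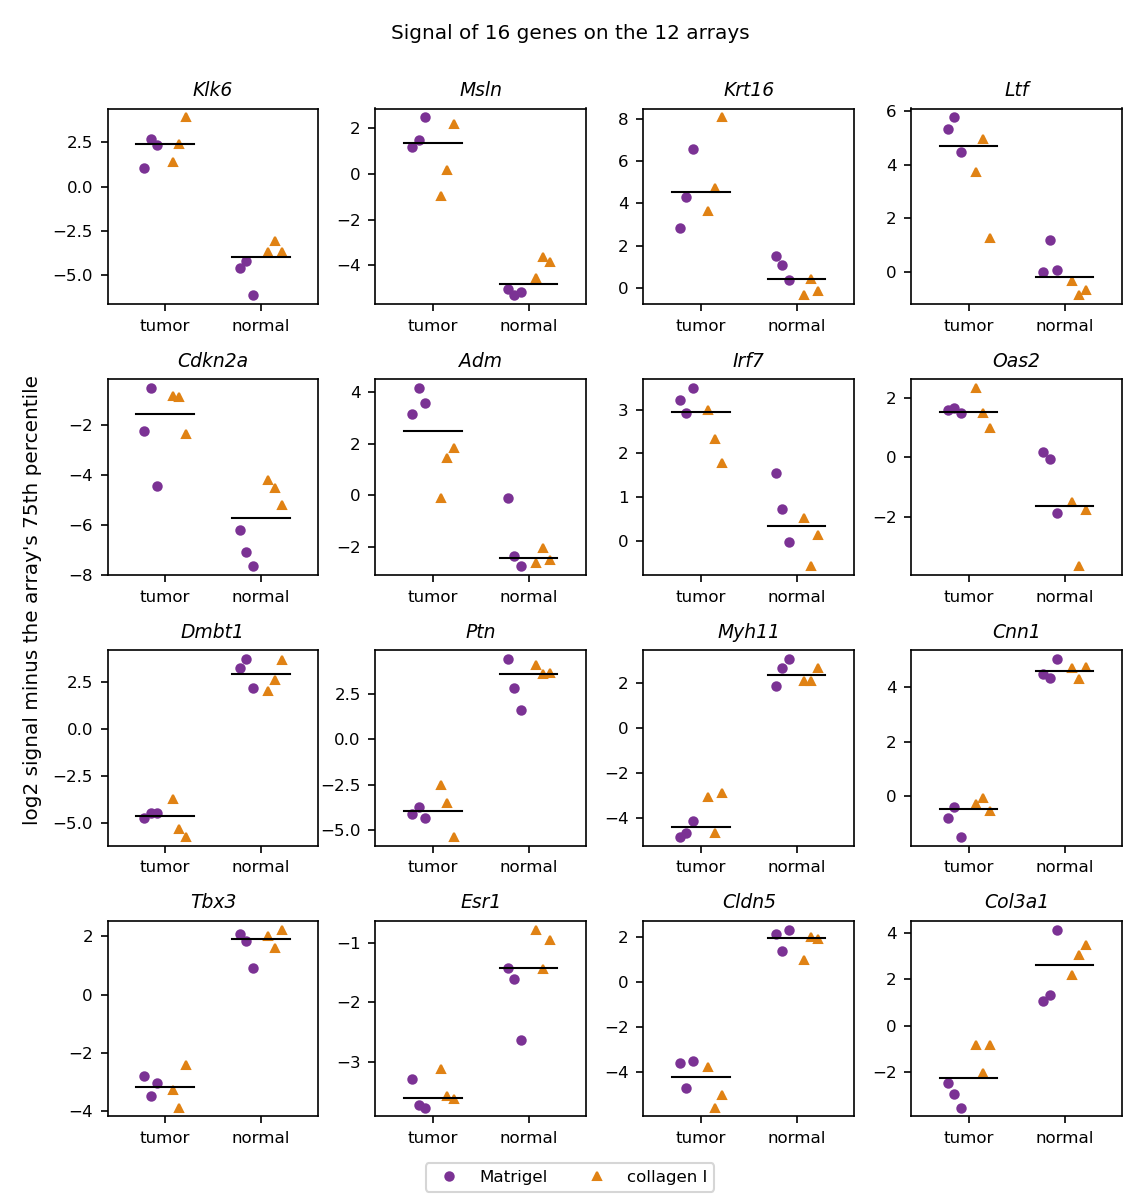
Levels (y axis, log2 signal minus the array's 75th percentile) of 16 genes on the 6 tumor arrays (left) and the 6 normal arrays (right) of each panel, with Matrigel as circles, collagen I as triangles and the median of a tissue as a line. The 8 genes of the upper panels are higher in tumor and the 8 of the lower panels are lower, and only Cdkn2a and Adm have arrays of the tissues that overlap.

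Col14a1, a fibril-associated collagen, was not well above background on any tumor array, with levels of -8.07, -7.61 and -7.27 in tumor organoids, against 0.15, 1.03 and 1.57 in normal organoids. It was at least 91.4-fold lower in tumor organoids, and its smallest difference across the alternatives was -3.70 on the log2 scale. Ido1, an enzyme that degrades tryptophan, was at least 18.3-fold lower and Reln, a secreted matrix glycoprotein, at least 11.9-fold lower. Their smallest differences across the alternatives were -1.54 and -1.03 on the log2 scale. Lgr5, the R-spondin receptor that marks stem cells in several epithelia, had levels of -7.25, -6.59 and -3.35 in tumor organoids, against -0.38, 0.18 and 0.64 in normal organoids. It was at least 49-fold lower, with 1 of 6 tumor arrays well above background. All of these genes were kept for testing through their normal arrays alone, so their calls rest on tumor values mostly at background.

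The nuclear receptor Esr1 and several other hormone-sensing genes were lower in tumor organoids of both gels. Of 14 measured genes of hormone-sensing luminal cells 8 were lower and 2 higher, and 7 of the decreases were concordant. The list median was -1.92, against 0.08 over all genes. Matrigel gave -1.30 and collagen I -2.25, with -0.20 between the tumor and normal Matrigel arrays of slide 1 and -2.37 between the collagen I arrays of slide 3. The summed linear signal of the 14 genes, relative to the 75th percentile, overlapped in Matrigel and not in collagen I. It was 23.9 to 33.3 on tumor Matrigel arrays and 15.2 to 33.3 on normal Matrigel arrays. In collagen I it was 12.1 to 22.6 on tumor arrays and 23.1 to 30.4 on normal arrays. Esr1, the estrogen receptor, had levels of -3.76, -3.59 and -3.12 in tumor organoids, against -2.63, -1.43 and -0.78 in normal organoids. No tumor array reached any normal one (-2.04 ± 0.22, 4.11-fold lower, limma adjusted p = 7.49e-05). Foxa1, the pioneer factor that opens chromatin for this receptor, had levels of -6.54, -3.96 and -2.73 in tumor organoids, against -1.17, -0.41 and 0.07 in normal organoids (-3.78 ± 0.53).

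Pgr, the progesterone receptor, was not well above background on any tumor array, with levels of -8.04, -7.58 and -6.69 in tumor organoids, against -4.56, -3.60 and -3.11 in normal organoids. It was at least 3.8-fold lower, but normexp background correction with an offset gave 0.10 (limma adjusted p = 0.806). Greb1, an estrogen-induced cofactor of the receptor, was at least 7.9-fold lower, but -0.52 on the log2 scale with the same correction (limma adjusted p = 0.216). The transcription factor Tbx3, which is required for mammary bud formation, had levels of -3.88, -3.17 and -2.43 in tumor organoids, against 0.92, 1.92 and 2.23 in normal organoids (-4.94 ± 0.28, limma adjusted p = 9.84e-07). Msx2, a homeobox factor, fell by 4.05 ± 0.40 on the log2 scale, with 3 of 6 tumor arrays well above background. Prlr, the prolactin receptor, fell by 2.42 ± 0.33 on that scale. Across the alternatives the smallest differences were -1.03 for Msx2, -1.02 for Prlr, -0.81 for Esr1 and -1.78 for Foxa1. The EGF receptor ligand Areg fell in the average (-1.80 ± 0.41) and was not concordant. The 2 increases were the surface proteins Ly6a (2.46 ± 0.39, concordant) and Prom1 (1.18 ± 0.14, limma adjusted p for a difference between gels 0.0255).

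Other luminal genes moved less. Of 17 luminal markers 9 were higher, 1 was lower and 0 were concordant (list median 0.51), while quantile normalization gave 5 higher and 5 lower. Gata3 and Elf5, transcription factors of luminal cells, differed by -0.23 ± 0.14 and -0.20 ± 0.20 (limma adjusted p = 0.202 and 0.425). Krt8, a keratin of simple epithelia, had levels of 7.87, 8.42 and 9.23 in tumor organoids, against 7.75, 7.84 and 8.29 in normal organoids, which overlapped (0.55 ± 0.16, limma adjusted p = 0.0167). The direction of Krt8 and of its partner Krt18 (0.69 ± 0.13) depended on the scaling, since quantile normalization gave -0.15 and -0.05. Krt7 rose by 1.89 ± 0.28, by 2.60 in Matrigel and 1.18 in collagen I (limma adjusted p = 0.0968 in collagen I). The decrease was Kit, a receptor of luminal progenitors (-0.88 ± 0.20). Cdh1, E-cadherin, differed by 0.04 ± 0.32 (limma adjusted p = 0.928).

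Among basal and myoepithelial markers the smooth muscle genes Myh11, Cnn1, Mylk and Tagln were lower in both gels and the p63 gene Trp63 was higher. Of 18 basal and myoepithelial markers 9 were lower, 6 of them concordant, and 4 were higher, 1 of them concordant (list median -0.46). Their summed linear signal overlapped, at 187 to 907 times the 75th percentile on tumor arrays and 234 to 636 on normal arrays. Smooth muscle myosin gene Myh11 had levels of -4.81, -4.37 and -2.85 in tumor organoids, against 1.88, 2.37 and 3.07 in normal organoids (-6.42 ± 0.33, 85.8-fold lower, limma adjusted p = 6.38e-07). Calponin gene Cnn1 had levels of -1.48, -0.45 and -0.07 in tumor organoids, against 4.28, 4.56 and 5.02 in normal organoids (-5.16 ± 0.20). Both left a gap of over 4 log2 units between the tissues. The myosin kinase gene Mylk fell by 4.09 ± 0.26 and the actin-binding protein gene Tagln by 3.03 ± 0.51 on the log2 scale. The oxytocin receptor gene Oxtr was at least 10.3-fold lower, with no tumor Matrigel array well above background, and differed by -2.45 in collagen I.

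Trp63, the p63 transcription factor that maintains basal cells, had levels of 2.11, 2.63 and 3.33 in tumor organoids, against 1.31, 1.55 and 1.96 in normal organoids. The arrays did not overlap (1.07 ± 0.22, limma adjusted p = 0.00279), but with slide as a fixed block the adjusted p was 0.116. The basal keratin Krt5 had levels of 5.38, 6.69 and 7.34 in tumor organoids, against 5.47, 6.93 and 8.18 in normal organoids, which overlapped over most of their range (-0.42 ± 0.45, limma adjusted p = 0.447). Its partner Krt14 differed by 1.32 ± 0.53 (limma adjusted p = 0.0587). For smooth muscle actin, Acta2, probes disagreed, as the brightest gave -0.15 ± 0.12 and the other 3 gave -6.61 to -1.99, so no direction is given. Smooth muscle genes are also made by cells around vessels, whose part in these decreases was not tested. The plot of list members shows Trp63, Krt14 and Krt17 right of 0 and Myh11, Cnn1, Mylk and Tagln left of it.

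**Figure D3:**
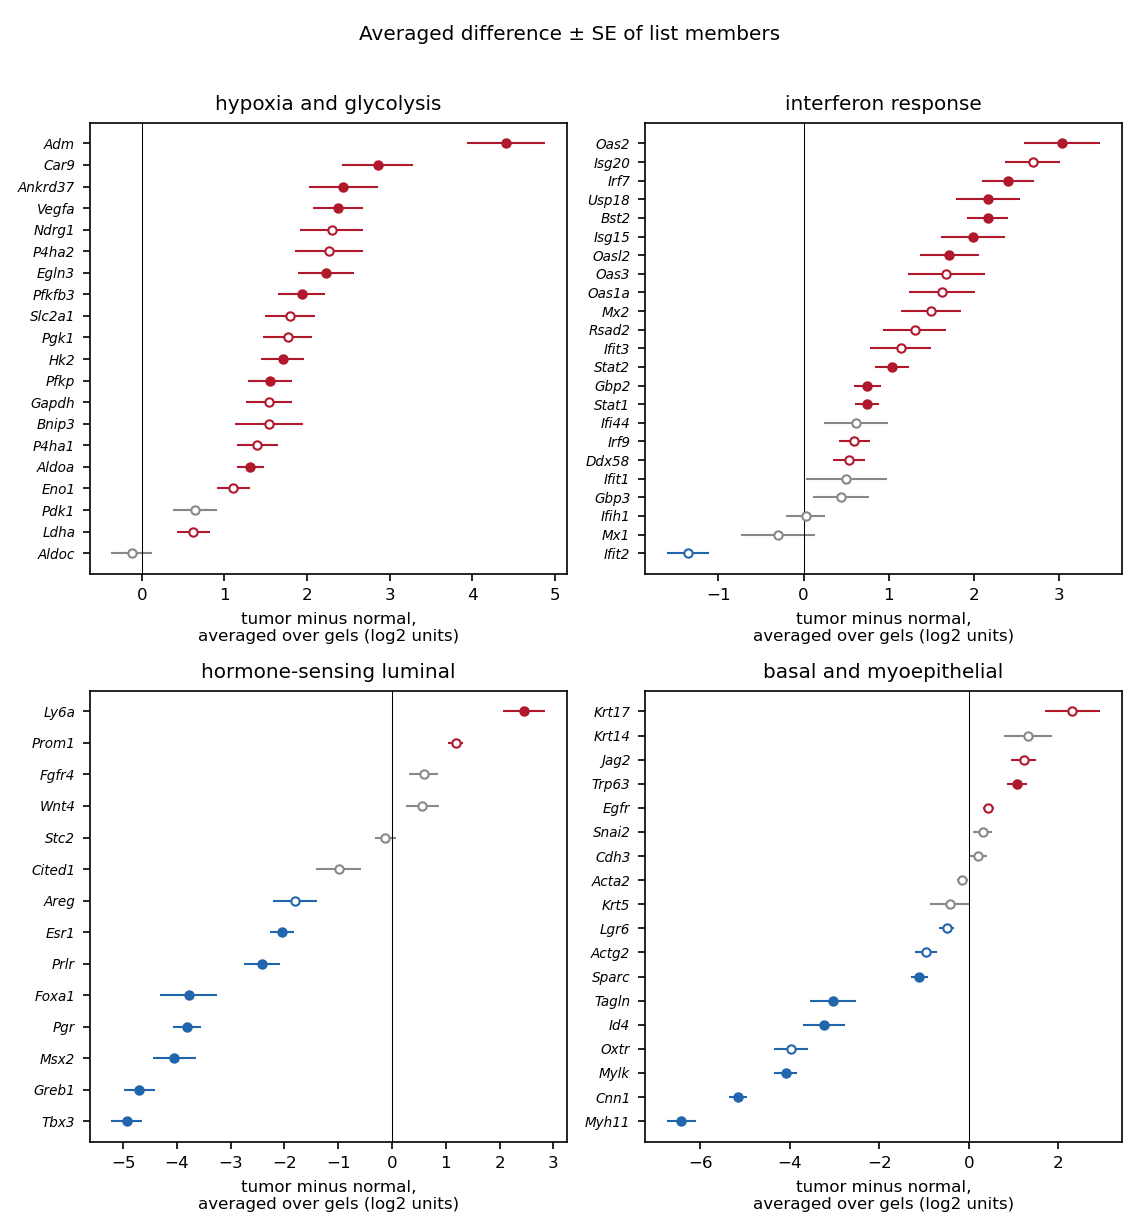
Averaged tumor minus normal difference (x axis, log2 units) ± SE of the limma fit for the measured members of 4 lists, with red for genes called higher in tumor, blue for genes called lower, grey for genes not called, and filled points for concordant genes. Hypoxia and interferon members lie mainly right of 0, hormone-sensing genes mainly left, and the basal list spreads from Krt17 to Myh11.

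Endothelial and fibroblast transcripts were low in tumor organoids of both gels. Of 13 endothelial markers 12 were lower and 0 higher, with 11 decreases concordant (list median -3.73, and -3.96 within slide 1 and -3.98 within slide 3). Cldn5, a tight junction protein of vessels, had levels of -5.55, -4.21 and -3.50 in tumor organoids, against 0.96, 1.93 and 2.31 in normal organoids (-6.11 ± 0.35, 69.2-fold lower, limma adjusted p = 1.06e-06). The vascular cadherin Cdh5 fell by 5.71 ± 0.44 and the sialomucin Emcn by 5.30 ± 0.44 on the log2 scale. Tie1, an endothelial receptor, was at least 15.8-fold lower and the only marker of the list not well above background on any tumor array. Its smallest difference across the alternatives was -1.43 on the log2 scale. Of 14 fibroblast markers 12 were lower, 10 of them concordant, and 1 higher (list median -2.74, or -2.30 with dim genes at their bounds). Col3a1, a fibrillar collagen, had levels of -3.54, -2.26 and -0.83 in tumor organoids, against 1.04, 2.61 and 4.14 in normal organoids, and the PDGF receptor Pdgfrb fell by 3.08 ± 0.37 on the log2 scale.

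The summed linear signal of the 13 endothelial markers, relative to the 75th percentile, was 2.78 to 3.9 on tumor arrays and 12.4 to 27 on normal arrays, and 7 to 11 of them were well above background on a tumor array and 12 to 13 on a normal one. For the 14 fibroblast markers the sums were 5.79 to 13.7 on tumor arrays and 26.4 to 143 on normal arrays, with 11 to 14 and 13 to 14 well above background. Neither sum overlapped between the tissues, as the plot of summed markers shows. Of the summed signal of 5 adipocyte markers, Fabp4 alone made 50.5 to 81.7% on tumor arrays and 90.5 to 96.4% on normal arrays. The other adipocyte markers summed to 0.332 to 0.669 on tumor arrays and 0.689 to 5.04 on normal arrays. Sums of 14 leukocyte markers overlapped in Matrigel, at 45.3 to 68.6 on tumor arrays and 37.1 to 57.8 on normal arrays. In collagen I they did not, at 32.1 to 69.3 on tumor arrays and 94.5 to 110 on normal arrays. Of these 14 genes 6 were lower, 2 of them concordant (C1qa and Lyz2, made by macrophages), and 1 was higher. The list median was -0.82, with -0.08 in Matrigel and -1.65 in collagen I, but 0.09 with the normexp correction. Ptprc (CD45) was not well above background on any tumor array. Sums of the 17 luminal markers were 951 to 2030 on tumor arrays and 740 to 1040 on normal arrays, with all 17 well above background on every array. The share of epithelial cells was not measured. In RNA from whole cultures fewer cells of a type and less RNA per cell cannot be told apart. Many of the genes that fell are also made by vessel or stromal cells, and the part of these cells in the results was not tested.

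**Figure D4:**
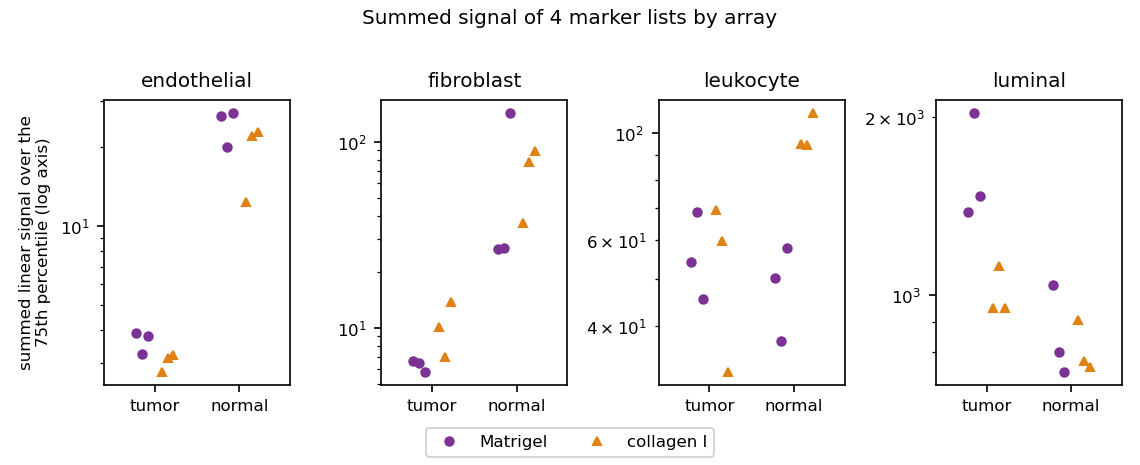
Summed linear signal over the array's 75th percentile (y axis, log scale) of the measured markers of endothelial, fibroblast, leukocyte and luminal cells, 1 point per array, tumor left and normal right, with Matrigel as circles and collagen I as triangles. All tumor points of the endothelial and fibroblast panels lie below the normal points. The leukocyte sums overlap in Matrigel and not in collagen I, and the luminal sums are highest on tumor Matrigel arrays.

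Interstitial matrix genes fell alongside the fibroblast markers. Of 23 measured 14 were lower, 10 of them concordant, and 5 higher (list median -1.30). Fbn1, the microfibril protein fibrillin, fell by 4.38 ± 0.29 and the collagen VI chain Col6a1 by 3.44 ± 0.36 on the log2 scale. Basement membrane genes were mixed, with 5 higher and 6 lower of 20 (list median -0.03, or 0.27 with the median scaling). These counts are near the 25.9% and 24.4% of all genes. Nid2, which links laminin to collagen IV, had levels of -7.63, -5.81 and -3.94 in tumor organoids, against -2.64, -1.01 and -0.20 in normal organoids (-4.59 ± 0.46, with -4.60 in Matrigel and -4.59 in collagen I). Frem2, a basement membrane protein of epithelia, was at least 51.1-fold lower, and its smallest difference across the alternatives was -2.73 on the log2 scale. The laminin chain Lama1 fell by 3.66 ± 0.32 on that scale. The smallest difference across the alternatives was -1.12 for Lama1 and -1.49 for Nid2. Fras1, a partner of Frem2, was at least 1.82-fold lower, but the normexp correction gave 0.58, not called. Lama4 (0.96 ± 0.12) was the single concordant increase.

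Mesenchymal genes were mostly lower or not called in tumor organoids. Of 15 genes of epithelial to mesenchymal transition 8 were lower and 1 higher, the cytokine Tgfb1 (0.48 ± 0.16). The 3 concordant genes were all lower. They were the repressors Zeb1 (-3.39 ± 0.30) and Zeb2 (at least 8.43-fold lower) and N-cadherin, Cdh2 (at least 7.44-fold lower). For Zeb1 the smallest difference across the alternatives was -1.12 on the log2 scale. With the normexp correction Zeb2 and Cdh2 stood at -0.75 and -0.46 on the log2 scale and were not called (limma adjusted p = 0.0869 and 0.213). The intermediate filament gene Vim had levels of 1.93, 3.42 and 4.41 in tumor organoids, against 4.64, 5.17 and 5.70 in normal organoids, without overlap (-1.84 ± 0.39, limma adjusted p = 0.00298). With slide as a fixed block its adjusted p was 0.208. Fibroblasts also make these transcripts, and beside them stand the fibroblast sums of 5.79 to 13.7 on tumor arrays and 26.4 to 143 on normal arrays, whose part in the result was not tested.

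Of 31 matrix proteases and inhibitors 11 were higher and 6 lower, beside 25.9% and 24.4% of all genes. The kallikrein Klk8 (3.59 ± 0.56) and the collagenase Mmp13 (2.88 ± 0.50) rose concordantly, and the cathepsin Ctsk fell in the average (-3.05 ± 0.68, but -1.44 and not called with the normexp correction). Among 21 integrins and matrix receptors 9 were higher and 6 lower (list median 0.08, or -0.22 with quantile normalization). The laminin-binding chains Itga3 (2.32 ± 0.20) and Itgb4 (1.49 ± 0.17) rose, as did the proteoglycan Sdc1 (1.86 ± 0.31), while Itga9 fell (-2.72 ± 0.38). Only Itgb4 and Itga9 of this list were concordant. Of 27 junction genes 14 were higher and 5 lower. The claudin Cldn1 (1.69 ± 0.20) and the gap junction protein Gjb2 (1.85 ± 0.30) rose concordantly, and Cldn6, a claudin of embryonic epithelia, was at least 11.5-fold lower with no tumor array well above background.

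Hypoxia and glycolysis genes were higher in tumor organoids of both gels. Of 20 measured 18 were higher, 9 of them concordant, and 0 were lower. The list median was 1.73, with 2.04 in Matrigel and 1.52 in collagen I, and 3.07 within slide 1 and 1.64 within slide 3. Adm, the vasodilator peptide adrenomedullin, had levels of -0.11, 2.49 and 4.16 in tumor organoids, against -2.75, -2.43 and -0.09 in normal organoids (4.41 ± 0.47, limma adjusted p = 6.38e-05). A single normal array, in Matrigel, reached the lowest tumor array. Vegfa, the vascular growth factor, had levels of 2.37, 3.06 and 3.77 in tumor organoids, against 0.02, 0.66 and 1.84 in normal organoids, without overlap (2.37 ± 0.31, 5.18-fold higher). Its difference was 2.37 in Matrigel and 2.38 in collagen I. Car9, a carbonic anhydrase of the cell surface, rose by 2.85 ± 0.43, the oxygen-sensing prolyl hydroxylase Egln3 by 2.23 ± 0.34 and Ankrd37 by 2.44 ± 0.42.

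Hypoxia-inducible factors bind DNA at a core of ACGTG on either strand. In the 250 bases before RefSeq gene starts (GRCm38.p6) these letters occurred on either strand for 7 of 9 concordant hypoxia genes, for 13 of 19 list genes with a promoter sequence, and for 23.9% of the 11451 tested genes with one. The windows of Car9 (chr4:43506776-43507025, plus strand) and of the glycolytic hexokinase gene Hk2 (chr6:82774455-82774704, minus strand), which rose by 1.70 ± 0.26, are shown as examples of concordant genes that hold the core, with the core in capitals.
Car9: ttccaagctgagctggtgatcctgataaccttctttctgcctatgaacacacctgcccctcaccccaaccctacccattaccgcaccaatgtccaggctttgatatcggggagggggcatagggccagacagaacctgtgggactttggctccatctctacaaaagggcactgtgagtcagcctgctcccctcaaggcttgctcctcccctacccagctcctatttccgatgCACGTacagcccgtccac
Hk2: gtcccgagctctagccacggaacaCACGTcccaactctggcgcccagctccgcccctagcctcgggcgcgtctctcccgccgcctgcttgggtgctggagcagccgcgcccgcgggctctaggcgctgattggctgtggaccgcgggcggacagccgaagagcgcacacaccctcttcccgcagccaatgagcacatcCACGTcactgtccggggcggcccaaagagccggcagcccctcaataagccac
The Car9 core begins 18 bases before the gene start, and the 2 Hk2 cores begin 226 and 52 bases before it. A match of letters describes the sequence and not binding.

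Most interferon-stimulated genes were also higher in the average. Of 23 measured 17 were higher, 9 of them concordant, and 1 was lower, Ifit2 (-1.36 ± 0.25, but -0.23 and not called with the normexp correction). The list median was 1.14, with 0.87 in Matrigel and 1.36 in collagen I, and 0.96 within slide 1 and 1.71 within slide 3. Oas2, which senses double-stranded RNA, had levels of 0.98, 1.53 and 2.33 in tumor organoids, against -3.66, -1.63 and 0.17 in normal organoids (3.03 ± 0.45, 8.19-fold higher, limma adjusted p = 0.000454). Irf7, a transcription factor that amplifies the response, had levels of 1.77, 2.95 and 3.49 in tumor organoids, against -0.58, 0.33 and 1.54 in normal organoids (2.40 ± 0.31). Neither gene overlapped between the tissues. Usp18, which removes the ubiquitin-like protein ISG15 from its targets, rose by 2.16 ± 0.38. Leukocytes also make these transcripts. The leukocyte marker sums in Matrigel were 45.3 to 68.6 on tumor arrays and 37.1 to 57.8 on normal arrays. In collagen I they were 32.1 to 69.3 on tumor arrays and 94.5 to 110 on normal arrays. The part of leukocytes in the result was not tested.

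The interferon-stimulated response element has a core of GAAA, then 2 bases of any kind, then GAAA. In the same windows, on either strand, this pattern occurred for 4 of 6 concordant interferon genes with a promoter sequence, for 10 of 18 such list genes, and for 3.2% of all tested genes with one. The windows of Isg15 (chr4:156200819-156201068, minus strand), the ubiquitin-like modifier that rose by 1.99 ± 0.38, and of Bst2 (chr8:71537473-71537722, minus strand), the virus-tethering protein tetherin that rose by 2.16 ± 0.24, are shown as concordant genes with overlapping copies, in capitals.
Isg15: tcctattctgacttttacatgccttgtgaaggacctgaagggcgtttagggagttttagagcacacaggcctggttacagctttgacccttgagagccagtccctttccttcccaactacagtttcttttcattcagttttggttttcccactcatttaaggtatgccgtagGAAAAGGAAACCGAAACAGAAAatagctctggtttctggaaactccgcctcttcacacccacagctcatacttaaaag
Bst2: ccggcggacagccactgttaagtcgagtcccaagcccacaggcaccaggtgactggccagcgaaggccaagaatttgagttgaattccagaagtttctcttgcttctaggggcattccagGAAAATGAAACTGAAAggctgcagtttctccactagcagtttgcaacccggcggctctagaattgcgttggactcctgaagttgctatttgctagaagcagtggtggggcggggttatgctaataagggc
The copies begin 78, 72 and 66 bases before the start of Isg15 and 130 and 124 bases before that of Bst2.

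Of 12 genes of MHC class I antigen presentation 9 were higher and 0 lower (list median 0.95). H2-D1, a heavy chain, had levels of 6.89, 7.34 and 7.67 in tumor organoids, against 5.57, 5.94 and 7.02 in normal organoids (1.22 ± 0.22, limma adjusted p = 0.00129), and 2 tumor arrays in collagen I lay below the highest normal array. B2m, the light chain, rose by 1.10 ± 0.21. Neither was called in collagen I alone, where the limma adjusted p was 0.0519 for H2-D1 and 0.0571 for B2m. The single concordant gene was the heavy chain H2-Q10 (1.12 ± 0.19), but class I heavy chains are near-identical copies whose probes may share signal.

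Inflammatory and acute-phase genes were higher, in part concordantly. Of 28 measured 20 were higher, 11 of them concordant, and 5 were lower, 3 of them concordant (list median 2.01, or 1.95 with dim genes at their bounds). Orm1, an acute-phase plasma protein, had levels of -2.51, -1.67 and -0.89 in tumor organoids, against -7.11, -6.25 and -5.54 in normal organoids. It was at least 19.9-fold higher, with no normal Matrigel array well above background, and differed by 3.70 in collagen I. The serum amyloid genes Saa1, Saa2 and Saa3 rose by 3.49 ± 0.54, 3.36 ± 0.54 and 3.06 ± 0.47, and the complement genes C3 and Cfb by 2.08 ± 0.17 and 2.63 ± 0.16. Saa1 and Saa2 are near-identical copies, so the probes may share signal. S100a9, a calcium-binding alarmin, had levels of -0.60, -1.56 and 3.67 in tumor mice A, B and C in Matrigel and of -1.36, -4.15 and 4.67 in collagen I, against -8.39, -6.37 and -5.87 as the lowest, median and highest of normal arrays. Tumor mouse C stood far above the other 2 in both gels. It was at least 91.2-fold higher but not called in collagen I alone (limma adjusted p = 0.071). Its fitted difference was 6.97 with and 4.94 without tumor mouse C. The concordant decreases were the chemokines Cxcl15 (at least 30.2-fold lower) and Cxcl14 (-2.41 ± 0.42) and the alarmin Il33 (-3.05 ± 0.61).

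Keratinization genes moved in both directions. Of 18 measured 10 were higher, 4 of them concordant, and 4 lower, 3 of them concordant. Tumor mouse C stood apart here, as was noticed after its values were seen, and its part in the result was not tested. It had the highest tumor array in both gels for 8 of the 10 genes that were higher, against 13.8% of all genes called higher, and without it 9 members of the list were higher. Krt16, a keratin of stressed epidermis, had levels of 2.82, 4.53 and 8.08 in tumor organoids, against -0.36, 0.39 and 1.52 in normal organoids, without overlap (4.55 ± 0.77, limma adjusted p = 0.000936). Its levels were 6.58 and 8.08 in tumor mouse C, and its difference was 3.40 without that mouse. Sprr1b, a cornified envelope precursor, was at least 10.6-fold higher with no normal array well above background. The envelope precursor Ivl went the other way, with levels of -7.63, -5.92 and -2.35 in tumor organoids, against -1.34, -0.33 and 0.64 in normal organoids (-5.22 ± 0.80). The keratin Krt4 was at least 7.01-fold lower, but -0.10 on the log2 scale and not called with the normexp correction (limma adjusted p = 0.81). The envelope protein Lor (-2.18 ± 0.31) fell concordantly, and Krt10 fell in the average (-0.53 ± 0.17, but 0.01 as the mean of its probes).

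Inhibitors of cyclin-dependent kinases were the only concordant members of 16 cyclins, kinases and inhibitors. Cdkn1a, the p53 target p21, had levels of 2.16, 2.74 and 3.58 in tumor organoids, against -0.64, 0.02 and 0.39 in normal organoids. The tissues were well apart (2.81 ± 0.22, 7-fold higher, limma adjusted p = 7.37e-06). Cdkn2a, the locus of p16 and ARF, had levels of -4.44, -1.57 and -0.54 in tumor organoids, against -7.66, -5.72 and -4.20 in normal organoids. It was at least 11.3-fold higher, although 1 tumor array in Matrigel lay among normal arrays in collagen I. Cdkn1c, p57, rose by 1.68 ± 0.34. Cyclin D1, Ccnd1, rose by 1.32 ± 0.22 in the average, with 0.99 in collagen I (limma adjusted p = 0.0787).

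No proliferation gene was concordant, beside 2.92% (higher) and 3.93% (lower) of all genes, so this is a description only. Of 22 mitosis genes 9 were lower and 0 higher (list median -0.54). Of 22 DNA replication genes 5 were lower and 0 higher (list median -0.46), a share near the 24.4% of all genes that were lower. These counts depended on the scaling. The median scaling gave 2 replication genes lower and 2 higher, and 7 mitosis genes lower. Quantile normalization gave 13 replication and 12 mitosis genes lower, beside 4446 of all 17643 genes. Normexp correction with the 75th percentile gave 10 and 8, beside 2118 of all genes. Mki67, the proliferation antigen Ki-67, had levels of 1.81, 2.05 and 3.67 in tumor organoids, against 3.11, 3.62 and 4.17 in normal organoids, with overlap (-1.37 ± 0.29, limma adjusted p = 0.00285). It differed by -1.91 in Matrigel and by -0.83 in collagen I, where the adjusted p was 0.247. The mitotic kinesin Kif11 fell by 1.83 ± 0.28 on the log2 scale, but stood at -0.54 and was not called with the normexp correction. The oncogenes Erbb2 and Myc rose by 0.66 ± 0.12 and 0.60 ± 0.18, and Myc was not called under quantile normalization (0.35, adjusted p = 0.144).

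Several Notch pathway genes fell concordantly. Of 17 measured 7 were lower, 5 of them concordant, and 4 higher (list median -0.06, or 0.24 with the median scaling). Dll4, a ligand of endothelial cells, had levels of -5.00, -4.47 and -3.87 in tumor organoids, against -2.61, -1.47 and -1.13 in normal organoids, and differed by -2.84 in Matrigel and -2.82 in collagen I. The target genes Heyl and Hey2 fell by 3.76 ± 0.30 and 3.25 ± 0.26, the glycosyltransferase Mfng by 4.61 ± 0.29 and the ligand Dll1 by 0.57 ± 0.12 on the log2 scale. The smallest differences across the alternatives were -1.03 for Dll4, -1.32 for Heyl, -1.30 for Hey2, -1.13 for Mfng and -0.27 for Dll1. Endothelial marker sums moved with these genes (2.78 to 3.9 on tumor arrays, 12.4 to 27 on normal arrays), and their part in the result was not tested. The ligands Jag1 (1.09 ± 0.36) and Jag2 (1.23 ± 0.28) rose in the average, and the receptors Notch1, Notch2 and Notch3 were not called (differences of -0.06, -0.17 and 0.04), although the median of the probes of Notch2 gave 0.64 with an adjusted p of 0.00246.

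Of 25 Wnt pathway genes 4 were higher and 8 lower (list median -0.13, or 0.17 with the median scaling), beside 25.9% and 24.4% of all genes. Besides Lgr5 the concordant decreases were the ligand Wnt5a (-1.57 ± 0.24, but 0.43 with the normexp correction) and the secreted protein Dkk3 (-1.67 ± 0.20). Sp5, a transcriptional target of the pathway, was at least 3.23-fold higher with no normal array well above background. The ligand Wnt7b rose by 2.00 ± 0.21, by more in Matrigel (2.97) than in collagen I (1.03). Of 25 Hox and developmental factors 6 were higher and 10 lower (list median -0.06, or 0.24 with the median scaling). Besides Tbx3 the concordant decreases were Hoxa7 (-1.79 ± 0.20), Hoxc9 (at least 7.41-fold), Hoxd8 (at least 3.1-fold) and Hoxc6 (at least 3.49-fold), of which Hoxd8 and Hoxc6 had no tumor array well above background. Normexp background correction with an offset gave 0.27 for Hoxd8, 0.16 for Hoxc6, -0.54 for Hoxa7 and -0.52 for Hoxc9, and none of these 4 was then called.

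Of 15 imprinted genes 7 were lower and 3 higher (list median -0.90, or 0.05 with the normexp correction). Mest, a paternally expressed gene, had levels of -3.67, -3.41 and -2.00 in tumor organoids, against 0.64, 1.99 and 3.03 in normal organoids, without overlap (-5.19 ± 0.24, 36.5-fold lower, limma adjusted p = 3.82e-07). Dlk1, another paternally expressed gene, was at least 3.98-fold lower, and Ndn fell by 1.39 ± 0.23 on the log2 scale. With the normexp correction Dlk1 stood at -0.13 and Ndn at -0.46, neither called. Among 20 lipid genes 6 were higher and 3 lower, beside 25.9% and 24.4% of all genes. The fatty acid transporter Cd36 was at least 12.1-fold lower (but -0.88 on the log2 scale and not called with the normexp correction) and the lipid droplet protein Plin2 rose by 1.58 ± 0.17. Cd36 and Fabp4 (-4.36 ± 0.32), a fatty acid binding protein, are also genes of fat and vessel cells, whose part was not tested. Of 24 glutathione and detoxification genes 8 were higher, with the transferase Gsta4 (1.39 ± 0.17) concordant, and 4 lower, led by the secreted peroxidase Gpx3 (-4.16 ± 0.29).

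Other signalling and metabolic lists held few or no concordant genes, as the plot of list medians shows. Of 24 targets of TGF-beta, YAP and SRF 13 were higher and 1 lower (list median 0.68), none of them concordant, and the activin subunit gene Inhba (2.31 ± 0.40) was among the increases. The EGF receptor family and its ligands had 6 higher and 4 lower of 15, the FGF and ERK list 5 and 3 of 19, milk genes 6 and 5 of 14, and cholesterol genes 1 and 2 of 22. Among all genes tested 25.9% were higher and 24.4% lower.

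**Figure D5:**
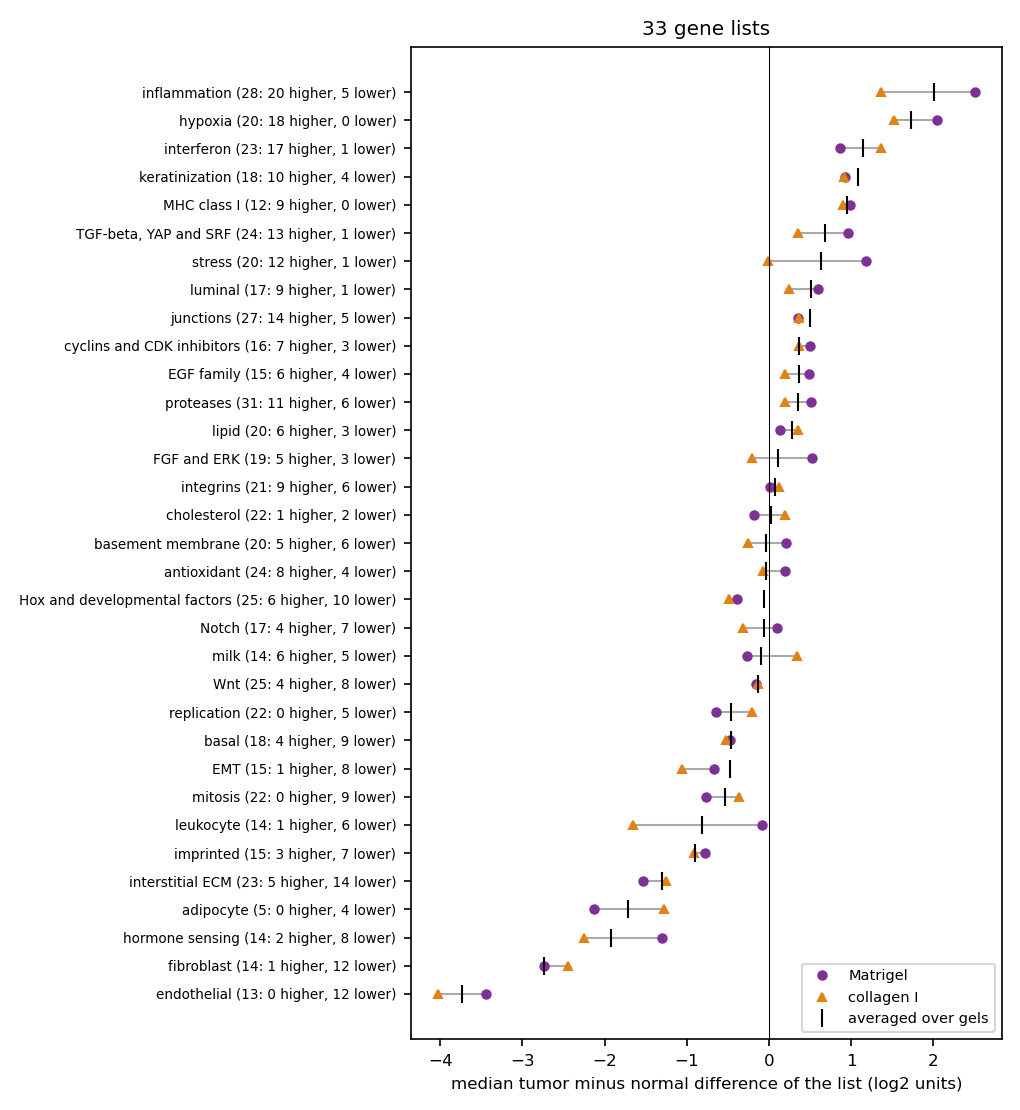
Median tumor minus normal difference (x axis, log2 units) of the measured members of 33 gene lists in Matrigel (circles), in collagen I (triangles) and averaged over gels (bars), with the number measured and the numbers called in each direction beside each name. Endothelial, fibroblast and hormone-sensing lists lie left of 0 and inflammation, hypoxia and interferon lists right of 0 in both gels, while the stress list lies at 1.18 in Matrigel and -0.01 in collagen I.

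The average also covered genes whose tumor difference depended on the gel. Before adjustment the limma p for a difference between gels was under 0.05 for 4588 of 17643 genes and for 167 of the 1209 concordant genes. After adjustment the difference between gels was called for 475 genes (2.69%), of which 10 were concordant. It was called for 1660 with mouse as a random replicate block. Leaving out 1 array gave 25 (without normal mouse A in collagen I) to 1931 (without normal mouse A in Matrigel), and every array but those of tumor mouse C moved the count by over 1.5 times. Of 17 fits that left out 1 array or 1 mouse, the difference between gels was called in 16 for Comp and in 16 for Ddit3, in 11 for Mgp, and in 6 or 7 for Hbegf, C1qb, Prom1, Orm1 and Wnt7b. Stress response genes were among the 475. Of 20 genes of the unfolded protein and integrated stress responses 12 were higher in the average, 0 were concordant and 6 differed between the gels. Ddit3, the stress transcription factor CHOP, had levels of 2.46, 3.61 and 2.88 on tumor Matrigel arrays, against -1.07, -0.97 and -0.68 on normal Matrigel arrays. In collagen I it had -0.46, -0.25 and -0.03 on tumor arrays, against -1.06, -1.11 and -1.08 on normal arrays. The averaged difference of 2.36 ± 0.19 thus joined 3.89 in Matrigel with 0.84 in collagen I (limma adjusted p for the difference between gels 0.00826). Hbegf, an EGF receptor ligand, differed by 4.35 in Matrigel and 1.79 in collagen I.

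Comp, a cartilage and tendon matrix protein, had levels of -2.03, -3.20 and -2.49 on tumor collagen I arrays, against 2.05, 1.89 and 1.16 on normal ones. In Matrigel it had -0.07, 0.93 and 0.23 on tumor arrays, against -0.47, -0.74 and 0.17 on normal ones. The decrease was thus seen in collagen I (-4.28) and not in Matrigel (0.71, limma adjusted p for the difference between gels 0.00582). Mgp, an inhibitor of calcification, was called with opposite signs, at 0.70 in Matrigel and -1.68 in collagen I. So was C1qb, a complement gene of macrophages, at 1.01 and -1.52, and its average of -0.26 ± 0.23 was not called (limma adjusted p = 0.369).

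Arrays of 1 mouse are not separate animals. With 1 mean per mouse for the 5 mice used in both gels, 3 tumor and 2 normal, 3488 genes were called in the average, among them 1155 of the 1209 concordant genes. An exact two-sided permutation test over 3 tumor and 4 normal mice cannot give a p-value below 0.0571. Slides 1 and 3 each held a tumor and a normal array of the same gel. With slide as a fixed block, which left 2 residual degrees of freedom, 6487 genes were called in the average. Among them were 1089 of the 1209, and 167 genes met all requirements for concordance. The 1209 genes were chosen on the same arrays, so the counts of them that stayed called are a description only.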

How the data were processed

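RNA of whole organoid cultures was amplified, labelled with Cy3 and hybridised to 1-colour Agilent mouse arrays, per the labels' protocols. Processed signal intensity was made with Agilent Feature Extraction 9.5.1.1, per the file headers, by background subtraction and detrending within each array, whereas the submitters' processing notes give version 9.1. The authors' deposited log2 values were used as an alternative, 1 of them an average of 2 hybridisations, per the labels. They correlated with the scanner values at r = 0.992 or more, had array medians of 5.91 to 5.98, and were nearly equal in distribution, a step no source used here describes.

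From the deposited processed signal intensity, log2 was taken and the 75th percentile of each array subtracted. Control spots and outlier spots were left out, and spots of 1 probe were averaged. A probe was kept if all 3 arrays of some group measured it well above background and every group had at least 2 values, which held for 26606 of 41174 probes, and a gene took its kept probe of highest mean (17643 genes). Names came from RefSeq by accession for 23082 probes, by symbol for 6582 and by older symbol for 3073, and from the files for the rest. Other probes of a gene were called in the opposite direction for 191 called genes, 2 of them concordant.

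The fit was limma 3.58.1 in R 4.3.3, with a mean for each of 4 groups and no block, on 8 residual degrees of freedom, and figures used matplotlib 3.10.9. The contrast was the mean of the tumor minus normal differences in the 2 gels, and calls used a Benjamini-Hochberg adjusted p under 0.05. For a fold given as a lower bound, only arrays of a group with none well above background were raised. Each took the higher of the probe's own value and that array's lowest signal well above background. The dimmer tissue was then set against the brighter one. The 2 arrays of hybridisation batch 1 entered only as an alternative. On simulated data for the averaged comparison, with 17643 genes, 91 of 100 genes changed 4-fold and 54 of 100 changed 2-fold were recovered, with 11 false calls. The simulation drew independent noise for each array, without correlation within a mouse or slide, and changed only these genes. Its count of false calls is therefore not an error rate for the real arrays. The number of arrays limits the precision.

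The mouse letters in the labels tie the arrays of 1 mouse across gels. Deviations from group means of the 2 arrays of a mouse correlated at -0.061, 0.329 and 0.424 for tumor mice and at 0.229 and -0.25 for normal mice. Letters do not link tumor to normal mice. Alternatives changed the background, scaling, filter, probe rule, variance model, blocks, thresholds and arrays.

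The comparison, members and gene lists were chosen with earlier results of these data known. Genes named were the largest concordant differences without overlap, those dim throughout 1 tissue, the leading called members of each list, genes whose difference depended on the gel, and 17 fixed markers, some left out for length and 1 not reported here. Hk2, Isg15, Bst2, Saa1, Saa2, Saa3, C3 and Cfb and other list members outside this rule were chosen after their values were seen.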

Additional observations from a re-analysis of the deposited data

Results flagged for a closer look

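The tumor difference itself differed between the gels for 8 of the genes named, by the limma contrast of the collagen I difference minus the Matrigel difference. Comp stood at -4.28 in collagen I and 0.71 in Matrigel, a difference of -4.99 (limma adjusted p = 0.00582). Ddit3 stood at 0.84 and 3.89, a difference of -3.05 (limma adjusted p = 0.00826). Mgp (-2.38, limma adjusted p = 0.0178) and C1qb (-2.53, 0.0313) changed sign between the gels. Hbegf (-2.56, limma adjusted p = 0.0463), Wnt7b (-1.94, 0.044), Prom1 (-1.59, 0.0255) and Orm1 (-1.80, 0.0379) had positive differences in both gels, smaller in collagen I. For Orm1 no normal Matrigel array was well above background, so its value of -1.80 rests on a group at background, and the normexp correction gave -0.87 (limma adjusted p = 0.277).

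These 8 differences kept their sign in all alternatives, but their calls did not all hold. Of 35 distinct alternatives Comp was called in 34, Ddit3 in 33, Mgp in 26, C1qb and Prom1 in 21 each, Wnt7b in 18 and Hbegf in 16, and Orm1 was called in 15 of the 34 that measured it. The tumor Matrigel arrays were also the dimmest, and the part of this in the differences between gels was not tested.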

How the results depend on the processing

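Of 1209 concordant genes 1013 kept the sign of the averaged difference with normexp background correction and the 75th percentile, and 1207 with the median of a gene's probes. Every other alternative kept the sign of all of them, or of the 727 it measured among probes well above background on all 12 arrays. The genes were chosen by sign and call on these same arrays. That choice favours a kept sign, so these counts are a description only. The number of genes called in the average was 6028 to 9271 when an array or mouse was left out, 920 against a 2-fold change and 3488 with 1 mean per mouse for 5 mice, a fit with no concordant count. The number concordant was 572 to 1455 when an array or mouse was left out, 610 with normexp and the 75th percentile, 720 among probes well above background on all 12 arrays, 167 with slide as a fixed block, 297 against a 2-fold change, 715 with a size ratio of 0.75 and 3553 with no call needed in each gel. The probe filter and stricter thresholds test fewer genes or ask for more, and the slide block leaves 2 residual degrees of freedom. For the other changes the cause was not tested. The authors' deposited log2 values gave 1271.

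With mouse as a random replicate block (correlation 0.203) 8186 genes were called in the average, 1296 were concordant and 1660 differed between gels. With letter as a fixed replicate block, a number that tumor and normal mice only share, the first 2 counts were 7321 and 1079. The count of genes that differed between gels was 25 to 1931 when 1 array was left out. It was 2 without normal mouse B and 20 with normexp and the 75th percentile. It was 2078 with batch 1 arrays averaged into normal Matrigel A and B, and 3474 with array quality weights.

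Some named genes turned direction, and the cause was not tested. With normexp and the 75th percentile Fras1 stood at 0.58, Hoxc6 at 0.16, Hoxd8 at 0.27, Pgr at 0.10, Ptprc at 0.36 and Wnt5a at 0.43, none of them called. Quantile normalization gave -0.05 for Krt18 and -0.15 for Krt8, normexp with quantile -0.09 and -0.13, and the authors' deposited values -0.09 for Krt8. Krt10 was 0.01 with the mean or median of its probes, and Notch2 was 0.64 with the median. Of 142 named genes called in the average 81 kept their call and direction throughout 36 distinct alternatives. Calls were lost with slide as a fixed block for Areg, Ctsk, Dll1, Fras1, Gjb2, Il33, Klk7, Krt10, Krt17, Krt8, Lce1d, Lyz2, Mgp, Myc, Ptprc, Tgfb1, Trp63 and Vim, and with 1 mean per mouse for B2m, Dll1, Erbb2, Il33, Jag1, Klk7, Krt10, Krt17, Krt18, Krt8, Lce1d, Mgp, Myc, S100a9, Tgfb1, Trp63 and Vim. Signal over background limits the dim genes, whose folds are lower bounds for the main processing only. Alternatives gave smaller differences for some of them, as small as -1.06 for Cldn6, -1.46 for Oxtr and 0.62 for Sp5 on the log2 scale.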
